A study of Mus musculus with 4 samples.

Results

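The genes described here are those of sterol and fatty acid synthesis, in cultured mouse synovial fibroblasts exposed to IL-1β, indomethacin and iloprost. The list names 33 genes. Members were found as probe sets whose platform annotation gives exactly 1 gene symbol, equal to a listed name, and each gene was represented by its brightest probe set, by mean log2 signal. Of the 33 genes, 31 were found, among 12393 genes with such a probe set, while Acat2 and Insig1 are not analysed here. The cells, taken from knees of naïve DBA/1J males 8 to 12 weeks old, were passaged 3 to 4 times and kept in medium with 1% serum. For 6 h, 1 dish each received IL-1β at 5 ng/ml with 1 µM indomethacin and 1 µM iloprost, IL-1β with 1 µM indomethacin, IL-1β alone, or vehicle. IL-1β is a cytokine of joint inflammation, indomethacin blocks the cyclooxygenases that make prostanoids, and iloprost mimics prostacyclin and raises cAMP. RNA of each dish was read on 1 Affymetrix array, which leaves no error between dishes and allows no test between treatments.

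Cells make cholesterol from acetyl-CoA through mevalonate, squalene and lanosterol, and fatty acids through malonyl-CoA, with elongases and desaturases shaping the chains afterwards. The transcription factors SREBP-2, encoded by Srebf2, and SREBP-1, encoded by Srebf1, raise most of these genes together. When sterols are scarce, the escort protein Scap carries the SREBPs from the endoplasmic reticulum to the Golgi, where they are cut and freed, and when sterols are plentiful the Insig proteins hold Scap back. Fibroblasts use these lipids for membranes, and mononuclear phagocytes, which also occur in synovial cultures, adjust the same pathways during inflammation.

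The labelled cell type could be checked against marker genes. All 10 fibroblast markers were above the floor, a signal of 37.6 that is the median of all deposited values, on every array, and so were all 12 macrophage markers. Summed signals of the macrophage markers were 24509 with iloprost, 24846 with indomethacin, 29695 with IL-1β and 25431 with vehicle, and those of the fibroblast markers were 26192 with iloprost, 24832 with indomethacin, 26778 with IL-1β and 24859 with vehicle. Of 6 adipocyte markers only Fabp4 was above the floor, of 7 chondrocyte markers only Comp, and of 7 endothelial and 5 lymphocyte markers none. The signal of a gene in a mixed culture cannot tell fewer cells of a type from less RNA per cell, and which of the cell types carried each signal was not tested. Ratios are log2 ratios of the first-named array over the second, centred on the median gene to take out the difference in brightness between arrays. Log2 ratios of several probe sets of the same gene differed within an array pair with an SD of 0.20 to 0.22, which covers measurement on these arrays and not differences between dishes.

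Of the 31 genes, 26 were above the floor on all 4 arrays, and Pmvk and Mvk on 2 arrays each. Dhcr7, the last enzyme of cholesterol synthesis, was above it only with IL-1β, at 39.3, and Acaca, the acetyl-CoA carboxylase that makes malonyl-CoA, and Elovl6, an elongase of saturated chains, on none. Acaca had signals of 6.5 to 12.1 and Elovl6 of 20.6 to 35.9. A gene has no ratio where both arrays compared are at the floor, and only a bound where 1 of them is.

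**Figure D1:**
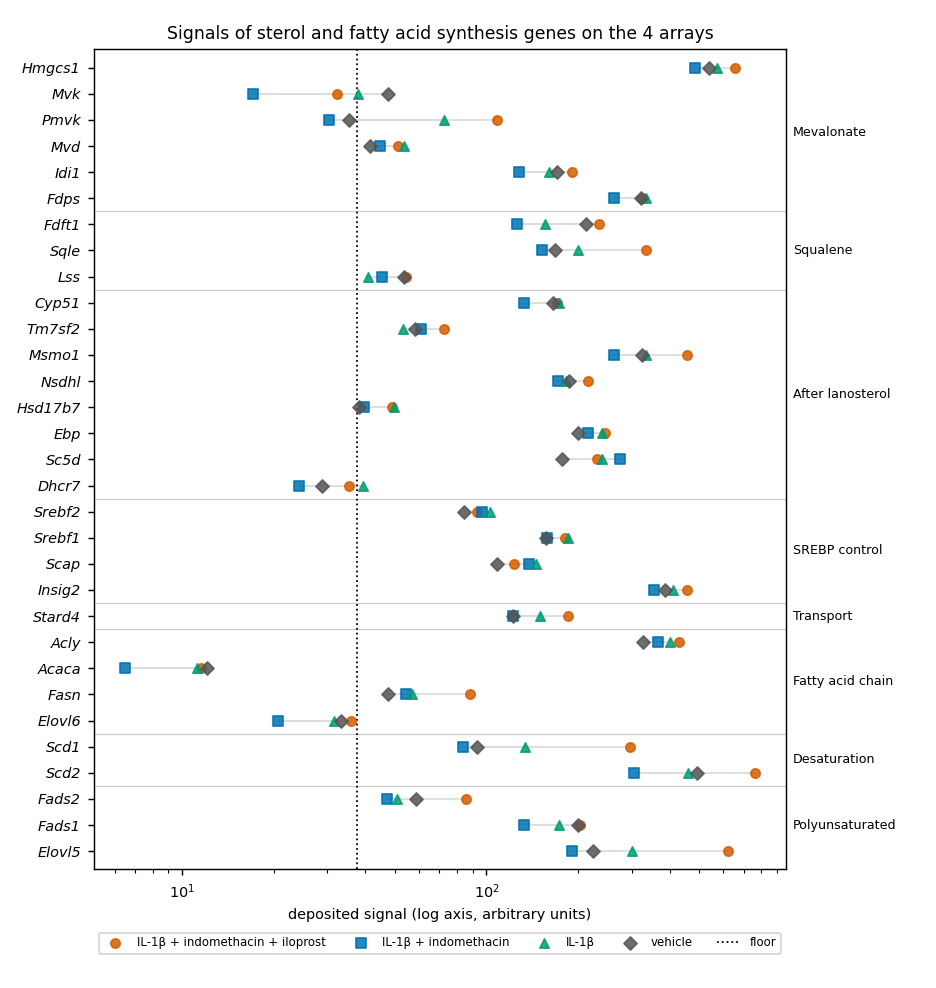
Deposited signal of 31 sterol and fatty acid synthesis genes (rows, grouped by step) on the 4 arrays; the horizontal axis is logarithmic, each point is 1 array and the dotted line is the floor of 37.6. Scd1, Scd2, Elovl5, Sqle and Pmvk show the iloprost array clear to the right of the other arrays.

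The main difference within the pathway lay between dishes with and without iloprost. With IL-1β, indomethacin and iloprost against IL-1β and indomethacin, 24 of 27 measured members lay above the median gene, where 54.8% of all 6986 measured genes did. The members' median log2 ratio was 0.35, against 0.04 for all genes. At least 1.5-fold higher were 11 members and at least 1.5-fold lower 0, where 7.83% and 7.19% of all genes were. At least 2-fold higher were 5 members and lower 0, against 1.98% and 3.19% of all genes. The 5 genes were the desaturases Scd1 and Scd2, the elongase Elovl5, the squalene epoxidase Sqle and, as a bound, the phosphomevalonate kinase Pmvk. A bound such as that of Pmvk enters the measured genes only because its signal with iloprost or IL-1β passed the floor.

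Of the mevalonate steps, Hmgcs1, which makes HMG-CoA, had a signal of 653.9 with iloprost, 483.9 with indomethacin, 570.0 with IL-1β and 538.1 with vehicle. Its log2 ratio was 0.43 for iloprost against indomethacin, and its 4 probe sets above the floor gave 0.43 to 0.63. On the probe set used, Hmgcs1 was highest with iloprost and lowest with indomethacin, with IL-1β and vehicle close together between them. Its other probe sets put IL-1β below vehicle, at -0.33 to -0.30, and iloprost near vehicle, at -0.01 to 0.10. Idi1, the isomerase that makes dimethylallyl diphosphate, had 191.6 with iloprost, 128.3 with indomethacin, 160.6 with IL-1β and 171.0 with vehicle, a log2 ratio of 0.57 for iloprost against indomethacin. Fdps, which makes farnesyl diphosphate, stood at 0.30, with 325.2 with iloprost and 263.2 with indomethacin, and Mvd, the mevalonate diphosphate decarboxylase, at 0.19. For iloprost against IL-1β alone their log2 ratios were 0.10 and 0.081, with deposited signals of 325.2 with iloprost and 333.2 with IL-1β for Fdps, and of 51.3 with iloprost and 53.4 with IL-1β for Mvd. Pmvk had the largest ratio of this branch, with 108.5 with iloprost, 30.3 with indomethacin, 72.4 with IL-1β and 35.4 with vehicle. It was higher with iloprost by a log2 ratio of at least 1.52 over indomethacin and of 0.72 over IL-1β. Only 1 probe set measures Pmvk and it was below the floor on 2 arrays. With the floor at the 65th percentile its bound over indomethacin was 0.34, short of both thresholds. Mvk, the mevalonate kinase, had 32.2 with iloprost, 17.1 with indomethacin, 37.9 with IL-1β and 47.5 with vehicle. Neither drug dish was above the floor, so Mvk has no ratio for iloprost against indomethacin.

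The squalene steps had a median of 0.88 for iloprost against indomethacin over 3 genes. Sqle, which oxidises squalene and is a rate-limiting step of the pathway, had 334.4 with iloprost, 151.7 with indomethacin, 199.3 with IL-1β and 168.1 with vehicle. The iloprost array was 2.19-fold above the indomethacin array and 1.85-fold above the IL-1β array, while the other arrays lay near each other. Fdft1, the squalene synthase, had 233.4 with iloprost, 126.4 with indomethacin, 155.7 with IL-1β and 211.6 with vehicle, with log2 ratios of 0.88 from the probe set used and 0.89 from another. In Fdft1 the iloprost and vehicle arrays were alike, with a ratio of 0.05, and the dishes with IL-1β alone or with indomethacin were lower. Lss, the lanosterol synthase, had 54.6 with iloprost, 45.2 with indomethacin, 40.8 with IL-1β and 53.7 with vehicle, all close to the floor. The iloprost and vehicle arrays were again alike, but in Lss the lowest signal was that with IL-1β alone.

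After lanosterol the ratios for iloprost against indomethacin were smaller, with a median of 0.31 over 7 measured genes. Msmo1, which removes methyl groups from the sterol ring, stood out with 455.8 with iloprost, 263.0 with indomethacin, 334.6 with IL-1β and 323.1 with vehicle. Its iloprost array was 1.72-fold above the indomethacin array. Cyp51, the lanosterol demethylase, was at 0.35, and a second, dimmer probe set gave 0.72. Nsdhl and Hsd17b7, which act with Msmo1 in the same demethylation, were both at 0.31, the sterol reductase Tm7sf2 at 0.24 and the sterol isomerase Ebp at 0.18. Sc5d, a desaturase late in the pathway, was the member with the lowest ratio, -0.26. Its signals were 230.5 with iloprost, 275.3 with indomethacin, 238.8 with IL-1β and 177.6 with vehicle, so that it was highest with indomethacin and lowest with vehicle.

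The fatty acid members held 3 of the 5 differences past 2-fold, and all 7 measured ones had ratios above the median gene for iloprost against indomethacin, with a median of 0.85. Scd1, which makes monounsaturated chains from stearate and palmitate, had 296.3 with iloprost, 83.7 with indomethacin, 133.4 with IL-1β and 93.0 with vehicle. The iloprost array was 3.52-fold above the indomethacin array, 2.45-fold above IL-1β and 3.00-fold above vehicle. Scd2, its close relative, had 760.5 with iloprost, 305.9 with indomethacin, 458.6 with IL-1β and 490.8 with vehicle. Its 3 probe sets gave 1.31 to 1.64 for iloprost against indomethacin. Both desaturases were highest with iloprost and lowest with indomethacin, but Scd1 was above vehicle by 1.59 with iloprost and Scd2 by 0.55. Coding sequences of Scd1 and Scd2 are alike, and how far their probe sets share targets was not tested. Adipocyte markers, which could accompany Scd1, were at most 8.4 for Adipoq, and Fabp4 had 164.3 with iloprost, 120.3 with indomethacin, 148.4 with IL-1β and 101.2 with vehicle.

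Elovl5 extends polyunsaturated chains and had 620.7 with iloprost, 191.6 with indomethacin, 301.3 with IL-1β and 224.2 with vehicle. Its ratio for iloprost against indomethacin was 1.69, and 1.51 from the second probe set. On the probe set used, the iloprost array was more than 2-fold above each other array, at 2.27-fold over IL-1β and 2.61-fold over vehicle. The second probe set gave log2 ratios of 1.17 over IL-1β and 0.96 over vehicle, the latter short of 2-fold. Fads2 and Fads1, the desaturases of the same route, had smaller ratios, 0.85 and 0.61. Fads2 had 85.4 with iloprost, 47.2 with indomethacin, 50.9 with IL-1β and 58.5 with vehicle, while Fads1 had 203.5 with iloprost, 133.0 with indomethacin, 172.4 with IL-1β and 200.1 with vehicle. Fads1 was thus at its vehicle level with iloprost, where the Fads2 probe set used was above it by 0.46. The other Fads2 probe set was not, at -0.09, with 47.3 with iloprost and 47.5 with vehicle. Fasn, the fatty acid synthase, had 88.2 with iloprost, 54.5 with indomethacin, 57.1 with IL-1β and 47.6 with vehicle, a ratio of 0.69, which became a bound of 0.045 with the floor at the 65th percentile. Acly, which supplies cytosolic acetyl-CoA, was at 0.21, with its 3 probe sets between 0.07 and 0.29.

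**Figure D2:**
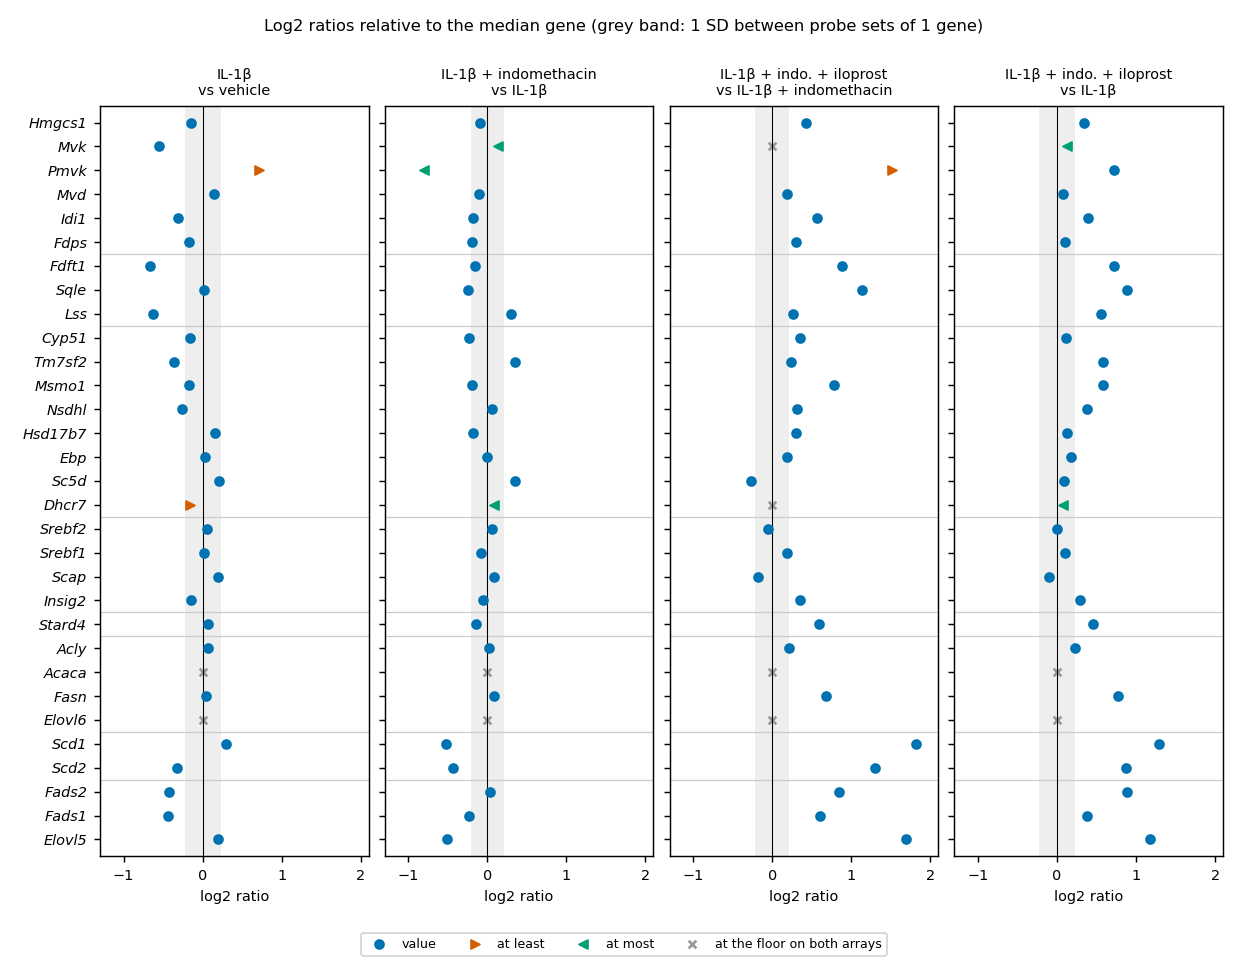
Log2 ratio of each member (rows) in 4 comparisons (panels), relative to the median gene; circles are values, triangles bounds, crosses genes at the floor on both arrays, and the grey band is 1 SD between probe sets of the same gene. In both iloprost panels the enzymes lie mostly to the right of 0, up to 1.82 for Scd1, while Srebf2, Srebf1 and Scap lie near 0.

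Of the genes that control the pathway, Srebf2, Srebf1 and Scap lay close to the median gene for iloprost against indomethacin. Srebf2 had 93.2 with iloprost, 96.4 with indomethacin, 102.8 with IL-1β and 84.5 with vehicle, a ratio of -0.06 for iloprost against indomethacin, and -0.23 from its second probe set. Srebf1 was at 0.18 and Scap at -0.18 in this comparison. Over the 4 arrays the log2 range relative to the median gene was 0.11 for Srebf2, 0.18 for Srebf1, 0.27 for Scap and 0.35 for Insig2. Among the enzymes it ran from 0.21 for Ebp and 0.23 for Mvd up to 1.69 for Elovl5 and 1.82 for Scd1, so that the regulators lay within the range of the enzymes except for Srebf2 and Srebf1, which were under it. Insig2, which retains Scap, was at 0.35, with 454.1 with iloprost, 354.5 with indomethacin, 408.6 with IL-1β and 386.6 with vehicle. The array measures transcripts and not the cutting of SREBP proteins. Stard4, which carries cholesterol between membranes, was at 0.59, and 0.93 from its second probe set, with 185.8 with iloprost, 122.4 with indomethacin, 149.7 with IL-1β and 122.4 with vehicle.

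Probe sets of the same member agreed in sign wherever they could be compared for iloprost against indomethacin. This held for 11 of 11 members with several probe sets above the floor on both arrays, with a median gap of 0.18 between the highest and lowest ratio. The largest gap was 0.38, for Cyp51. Signs agreed in 6 of 10 members for IL-1β against vehicle, 8 of 10 for indomethacin against IL-1β and 11 of 12 for iloprost against IL-1β. Against vehicle they agreed in 10 of 10 with indomethacin and 7 of 11 with iloprost. Small ratios in those comparisons thus depend on the probe set.

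**Figure D3:**
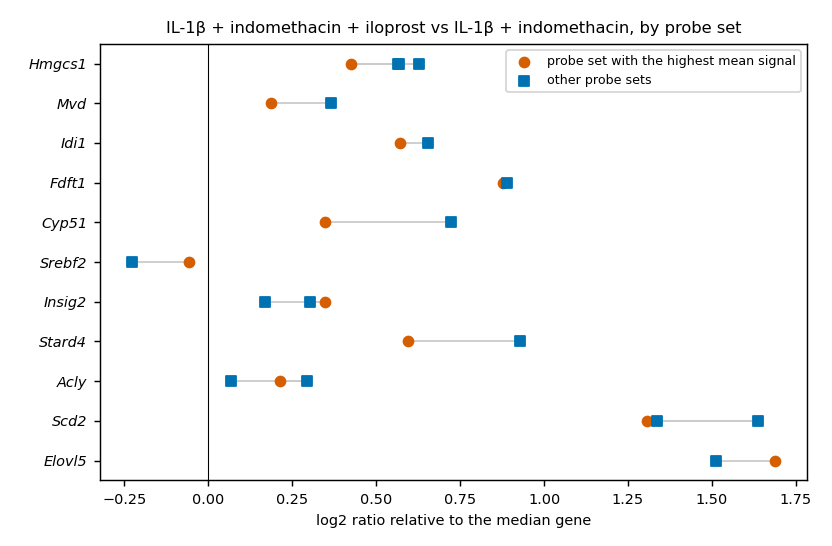
Log2 ratio of IL-1β, indomethacin and iloprost over IL-1β and indomethacin, relative to the median gene, for each probe set of the 11 members (rows) with several probe sets above the floor on both arrays; orange circles are the probe sets with the highest mean signal and blue squares the others. Only Srebf2 lies left of 0, and the gap within a gene is at most 0.38.

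IL-1β with both drugs was also set against IL-1β alone, a comparison that shares the iloprost array with the one above. Above the median gene were 25 of 29 measured members, where 53.7% of all 7050 genes were, and the members' median was 0.38 against 0.03. At least 1.5-fold higher were 9 members, against 5.11% of all genes, and 0 were as much lower, against 5.91%. Scd1 (1.29) and Elovl5 (1.18) passed 2-fold, as 0.95% of all genes did, and 0 members were 2-fold lower, against 2.37%. The next members were Sqle and Fads2, each at 0.89, Scd2 at 0.87, Fasn at 0.77, and Pmvk and Fdft1 at 0.72. Fasn and Fads2 had nearly the same ratio against IL-1β with and without indomethacin. On the deposited scale the iloprost array is dimmer than the IL-1β array by 0.14 for the median gene. There 19 of the 29 were above 0, where 35.5% of all 7050 genes were.

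With indomethacin and IL-1β against IL-1β alone, the members lay slightly lower. Their median was -0.09, against 0.00 for all genes, with 18 of 29 below the median gene, where 49.6% of all 6932 genes were. No member differed 2-fold, where 0.245% of all genes were as much higher and 0.664% lower, and 1 was at least 1.5-fold lower, against 2.35%. That member was Pmvk, at most -0.80. Scd1 was at -0.53, Elovl5 at -0.51, Scd2 at -0.44 (0.04 from its dimmest probe set), Sqle at -0.25, and Cyp51 and Fads1 at -0.23. These ratios and those of iloprost against indomethacin both use the indomethacin array, so its measurement error moves the ratios in opposite directions. Sc5d and Tm7sf2, both at 0.35, and Lss, at 0.30, were the highest.

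IL-1β against vehicle left the list without a common direction. The median was -0.14, against -0.02 for all genes, and on the deposited scale it was 0.083, against 0.21 for all genes. Relative to the median gene, 14 members were above and 14 below, where 47.3% and 50.7% of all 6964 genes were, and 0 members differed 2-fold, where 1.72% were higher and 0.56% lower. At least 1.5-fold lower were Fdft1 (-0.67) and Lss (-0.62), where 3.86% of all genes were, and at least 1.5-fold higher was Pmvk, by at least 0.72, where 4.65% were. Fads1 and Fads2 stood at -0.44 and -0.43, Idi1 at -0.32, Scd2 at -0.32 and Scd1 at 0.29.

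Against vehicle, the dishes with drugs lay on either side. With IL-1β and indomethacin, 20 of 27 measured members were below the median gene, where 52.8% of all 6804 genes were, and the median was -0.23, against -0.02. At least 1.5-fold lower were 3 members, against 2.85%, Fdft1 (-0.82), Scd2 (-0.76) and Fads1 (-0.67), and 0 were as much higher, against 3.47%. No member differed 2-fold, where 1.32% of all genes were higher and 0.323% lower. With iloprost added, 23 of 28 were above the median gene, where 53.6% of all 6983 genes were, and the median was 0.22, against 0.02. At least 1.5-fold higher were 5 members, against 7.68%, and 0 were as much lower, against 7.59%. Scd1 (1.59), Pmvk (at least 1.44) and Elovl5 (1.38, but 0.96 from its second probe set) passed 2-fold. Of all genes 2.72% did, and 3.34% were as much lower. Sqle (0.91) and Fasn (0.80) followed. The members thus near their vehicle level with both drugs included Fdft1 (0.05), Idi1 (0.08), Cyp51 (-0.04), Fdps (-0.07) and Fads1 (-0.06).

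**Figure D4:**
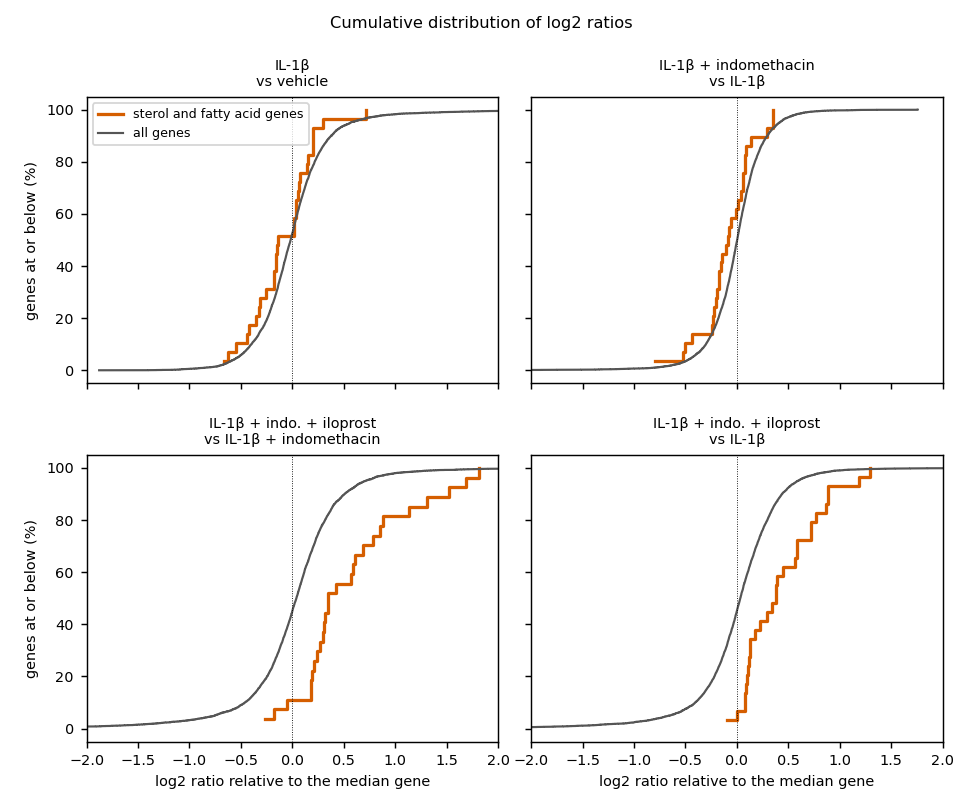
Cumulative share of genes (vertical axis, %) at or below each log2 ratio relative to the median gene (horizontal axis), for the sterol and fatty acid synthesis genes (orange) and all measured genes (grey), in 4 comparisons. The curves run close together for IL-1β against vehicle, with medians of -0.14 and -0.02, and lie apart for iloprost against indomethacin, with medians of 0.35 and 0.04.

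Taking the 4 arrays together, relative to the median gene, 19 of the 26 members above the floor on every array had their highest level with iloprost, where 34.6% of 6222 genes did, and 0 had their lowest there, against 28.7%. With indomethacin 15 had their lowest level, against 23% of all genes. Both held for 12 members, against 12.9%, and these were Hmgcs1, Idi1, Fdft1, Sqle, Msmo1, Hsd17b7, Srebf1, Insig2, Stard4, Scd1, Scd2 and Elovl5. The 4 members highest with vehicle, against 27.5% of all genes, were Fdps, Lss, Cyp51 and Fads1, with ratios of iloprost over vehicle from -0.07 to -0.04. The 3 highest with indomethacin, against 19.3%, were Sc5d, Srebf2 and Scap. Differences of this size in single genes lie within or near the SD between probe sets. Among the 12, the lead of iloprost over vehicle was only 0.05 for Fdft1, 0.08 for Idi1, 0.15 for Insig2 and 0.19 for Hmgcs1. Its lead over IL-1β was 0.10 for Srebf1 and 0.13 for Hsd17b7. All of these leads are under that SD, so the place of these genes among the 12 is uncertain.

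The promoter windows of members that differed together are shown because SREBPs act at promoters with the help of NF-Y, a factor that binds the box CCAAT. Windows of 250 bases before to 50 after the annotated start, from RefSeq on GRCm38.p6, were given for 26 of the 33 genes. None was given for Sqle, Scd1, Scd2, Fdft1, Fads1, Stard4 or Fdps. All of these except Fdps were at least 1.5-fold higher with iloprost than with indomethacin, so the windows leave out many of the members that differed most. In the upstream 250 bases printed here, 5′ to 3′ on the gene's strand, capitals mark CCAAT or its complement ATTGG and, in Hmgcs1, the sterol regulatory element TCACNCCAC. Windows of Hmgcs1 (chr13:119690101-119690350, + strand), Msmo1 (chr8:64733579-64733828, - strand), Fasn (chr11:120824548-120824797, - strand) and Elovl5 (chr9:77917115-77917364, + strand) belong to genes that were higher with iloprost, and that of Sc5d (chr9:42264301-42264550, - strand) to the gene with the lowest ratio.
Hmgcs1: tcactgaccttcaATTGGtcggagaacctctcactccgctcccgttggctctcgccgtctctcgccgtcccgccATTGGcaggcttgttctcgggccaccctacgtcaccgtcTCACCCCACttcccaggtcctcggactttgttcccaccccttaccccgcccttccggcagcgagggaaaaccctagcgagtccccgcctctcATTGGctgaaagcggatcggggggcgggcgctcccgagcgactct
Msmo1: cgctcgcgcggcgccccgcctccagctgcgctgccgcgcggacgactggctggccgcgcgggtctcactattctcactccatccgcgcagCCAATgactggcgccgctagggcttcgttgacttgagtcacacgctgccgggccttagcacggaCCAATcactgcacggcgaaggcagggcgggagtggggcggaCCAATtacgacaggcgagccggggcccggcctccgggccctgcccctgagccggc
Fasn: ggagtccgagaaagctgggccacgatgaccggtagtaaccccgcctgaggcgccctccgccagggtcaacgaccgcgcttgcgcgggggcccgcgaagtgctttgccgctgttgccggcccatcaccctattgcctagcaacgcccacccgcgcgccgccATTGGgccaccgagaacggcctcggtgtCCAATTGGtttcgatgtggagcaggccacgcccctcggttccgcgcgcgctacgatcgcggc
Elovl5: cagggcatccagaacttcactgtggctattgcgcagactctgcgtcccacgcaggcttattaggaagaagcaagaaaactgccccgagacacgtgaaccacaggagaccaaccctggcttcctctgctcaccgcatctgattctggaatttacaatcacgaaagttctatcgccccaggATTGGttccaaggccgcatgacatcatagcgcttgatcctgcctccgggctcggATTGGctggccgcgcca
Sc5d: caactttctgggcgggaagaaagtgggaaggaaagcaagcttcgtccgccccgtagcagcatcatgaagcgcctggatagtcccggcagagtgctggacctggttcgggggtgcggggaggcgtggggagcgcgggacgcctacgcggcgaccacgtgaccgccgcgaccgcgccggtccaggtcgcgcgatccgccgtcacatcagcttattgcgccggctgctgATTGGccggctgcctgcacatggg

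Hmgcs1 holds 3 NF-Y boxes in this stretch and the element TCACCCCAC, which starts 137 bases before the start. Msmo1 and Fasn hold 3 boxes each, of which 2 overlap in Fasn, Elovl5 holds 2 and Sc5d 1, at 24 bases before the start. The printed windows are examples, and box number was not tested against the ratio for iloprost against indomethacin. Among members not printed, Fads2, at 0.85, holds no box. Hsd17b7, at 0.31, holds boxes 165, 73 and 12 bases before the start. On both strands of the whole windows, CCAAT was found in 21 of 26 member genes, 80.8%, against 42.3% of the 5846 genes in the promoter table that were above the floor on an array. At least 2 boxes in a window were found in 12 members, against 17.1% of those genes. The box GGGCGG, bound by Sp1, was in 21 of 26 members, against 71.6%. TCACNCCAC was in 1 member, against 1.47%, and the cAMP response element TGACGTCA in 1 member, against 3.58%. That member was Elovl5, where it lies from base 4 to base 11 after the start, at chr9:77917368-77917375. The shorter core TGACG, which the full element contains, was in 10 members, 38.5%, against 37.8%. The 26 member genes were not held to the floor, unlike the genes they are set against. They include Acat2 and Insig1, which are not analysed here, and Acaca and Elovl6, at the floor on every array. Over all 27025 genes of the promoter table, CCAAT was in 41.1% and GGGCGG in 38.2%. A match of letters is not a bound site, and degenerate forms of the sterol element were not searched.

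Genes around the pathway were counted in 4 further lists. Of other sterol synthesis genes 4 of 8 had a probe set, Ggps1, Lbr, Cyb5r3 and Cyb5b, and their ratios for iloprost against indomethacin ran from -0.20 to 0.24, with 0 past 1.5-fold. In that comparison 7.83% of all genes were at least 1.5-fold higher and 7.19% lower. Of 5 measured genes of sterol sensing and SREBP processing, 1 was at least 1.5-fold lower, Nr1h3, which encodes the oxysterol receptor LXRα. It had 45.6 with iloprost, 75.9 with indomethacin, 85.2 with IL-1β and 77.0 with vehicle, a ratio of -0.74 for iloprost against indomethacin. Against vehicle, the iloprost array was also at least 1.5-fold lower in Nr1h3 (-0.84) and in Syvn1 (-0.70), a ubiquitin ligase of the endoplasmic reticulum. Of 13 measured genes of acyl-chain use, 2 passed 1.5-fold upward with iloprost and 0 downward, against 7.83% and 7.19% of all genes. Dgat1, which makes triglyceride, had 230.6 with iloprost, 66.2 with indomethacin, 156.8 with IL-1β and 51.1 with vehicle, a ratio of 1.79. Acsl4, which activates arachidonate, had 951.5 with iloprost, 519.8 with indomethacin, 1062.7 with IL-1β and 355.5 with vehicle, a ratio of 0.86. Dgat1 and Acsl4 were also higher with IL-1β than with vehicle, by 1.39 and 1.35, where 0 members were called 2-fold higher. They were lower with indomethacin than with IL-1β alone, by ratios of -1.10 and -0.88. In that comparison 18 of 29 members lay below the median gene, against 49.6% of all genes, and the members' median was only -0.09. Agpat1, an acyltransferase of phosphatidic acid synthesis, was at -0.60 with IL-1β against vehicle.

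Of 11 measured genes of sterol uptake, transport and efflux, 1 passed 1.5-fold upward with iloprost and 2 downward. For all genes the shares were 7.83% and 7.19%. Ch25h, which makes an oxysterol that blocks the release of SREBPs, had 232.2 with iloprost, 1419.0 with indomethacin, 844.1 with IL-1β and 625.9 with vehicle. Its ratio was -2.62 for iloprost against indomethacin and -1.72 against IL-1β alone, and it was 0.90 for indomethacin against IL-1β. Over the dishes with IL-1β, the order of Ch25h was opposite to that of Scd1, Elovl5 and Sqle. Other members did not have the order of Scd1, such as Sc5d, higher with indomethacin, and Lss, lowest with IL-1β alone. Whether Ch25h had a part in the levels of the members was not tested. Cyp7b1, which breaks that oxysterol down, had 1093.6 with iloprost, 1895.0 with indomethacin, 1519.0 with IL-1β and 767.5 with vehicle, a ratio of -0.80 for iloprost against indomethacin. Abca1, which exports cholesterol and is raised by LXR, had 2143.4 with iloprost, 1112.6 with indomethacin, 1486.6 with IL-1β and 1252.6 with vehicle, a ratio of 0.94. Abcg1, another LXR-raised exporter, was at -0.43 and Mylip, also an LXR target, at 0.01. Whether LXR had a part in these values was not tested. Macrophage markers stand beside these values, with a median of -0.10 for iloprost against indomethacin. In that comparison 4 of 12 were at least 1.5-fold lower and 1 higher, against 7.19% and 7.83% of all genes. Fcgr1 (-1.46), Adgre1 (-0.77), Cybb (-0.75) and Aif1 (-0.74) were the lower ones, Cd14 (0.62) was the higher one, and Csf1r (-0.07) and Lyz2 (-0.09) were near the median gene. Their part in the results was not tested.

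**Figure D5:**
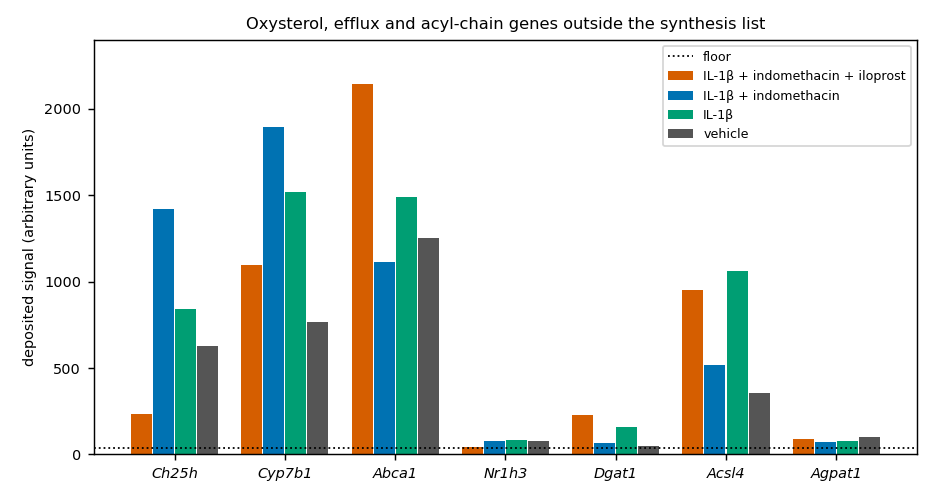
Deposited signal (vertical axis, linear from 0) of 7 lipid genes outside the synthesis list that differed at least 1.5-fold in 1 or more of the 4 main comparisons, on the 4 arrays; each bar is 1 array and the dotted line is the floor of 37.6. Ch25h is lowest with iloprost, at 232.2, and highest with indomethacin, at 1419.0, while Abca1 and Dgat1 are highest with iloprost.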

How the data were processed

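The deposited table gives 1 intensity per probe set and array, a linear signal that is never negative. Standard Affymetrix protocols were followed for the RNA, per the labels. How probes were summarised, corrected for background and scaled is not given in the sources used here. Of 22690 probe sets, 20380 name exactly 1 gene in the platform annotation after 64 control probe sets were left out, and gene numbers of all 31 members matched RefSeq GRCm38.p6 with 0 symbols changed. Before log2, signals were raised to at least 37.6, the 50th percentile over the 4 arrays. Ratios were centred on the median of 6222 genes that exceeded this floor throughout. That shift was 0.23 for IL-1β over vehicle, -0.15 for indomethacin over IL-1β, 0.01 for iloprost over indomethacin and -0.14 for iloprost over IL-1β. An array had 48.8% to 51.2% of its probe sets above the floor. Precision is limited by having only 4 arrays. The members, the gene lists, the motifs and the thresholds of 1.5-fold and 2-fold were chosen with earlier results of these data known. Every member is accounted for, and genes of the other pathway lists are named where they differed at least 1.5-fold, at most 4 a list and comparison; members of short lists, LXR targets and some cell type markers are also named to show the range, chosen after their values were seen. The computations used Python 3.11.15, numpy 2.4.6 and pandas 2.3.3, and were tested on simulated data. Alternatives were the deposited scale, quantile normalization, floors at the 25th and 65th percentiles, the mean over probe sets and, added after seeing the data, no floor with a pseudocount of 16.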

Additional observations from a re-analysis of the deposited data

How the results depend on the processing

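For iloprost against indomethacin and against IL-1β alone, the members' medians stayed within the SD between probe sets, from 0.34 to 0.54 and from 0.24 to 0.39, under all 6 alternatives. For indomethacin against IL-1β the median ran from -0.24 to -0.09. For IL-1β against vehicle it was -0.14, stayed between -0.13 and -0.06 under the other alternatives and turned to 0.083 on the deposited scale, by construction of the brightness shift. Counts of members past 2-fold kept within 1.5 times, except that with a floor at the 25th percentile 1 member was at least 2-fold lower with indomethacin than with IL-1β, Pmvk at -1.11, because its signal of 30.3 was then used in place of the floor. For iloprost against indomethacin, the floor at the 65th percentile left Pmvk at a bound of 0.34, no longer 2-fold, and Fasn at a bound of 0.045, no longer 1.5-fold. Fads1 fell below 1.5-fold with the floor at the 25th percentile and with no floor (0.55 in both), Stard4 in the same 2 settings (0.54 in both), Fasn with no floor (0.56) and Fads2 with the mean of probe sets (0.58). For iloprost against IL-1β, Tm7sf2 (0.45 to 0.53), Pmvk (0.49 and 0.58), Fdft1 (0.58) and Fasn (0.19) fell below 1.5-fold under an alternative, and for IL-1β against vehicle Lss (-0.40 and -0.50), Fdft1 (-0.44) and Pmvk (0.57) did. Fads2 had no ratio with the floor at the 65th percentile, nor had Tm7sf2 for iloprost against IL-1β, Lss and Pmvk for IL-1β against vehicle or Pmvk for indomethacin against IL-1β. With no floor and a pseudocount of 16, all 31 genes had ratios. For iloprost against indomethacin 27 were then above the median gene, where 54.2% of all 12393 genes were. Among single genes 603 of 649 ratios moved by less than the SD between probe sets, 46 by more, and 0 of those past 1.5-fold changed sign. Part of this tally was fixed by construction. The deposited scale moves all ratios of a comparison by the same amount, which gave 29 of the 46 and 85 of the 603. The mean over probe sets leaves a gene with 1 probe set unchanged. For all genes, the share at least 1.5-fold higher with IL-1β than with vehicle was 4.65%, and 10.7% on the deposited scale, with 3.86% and 1.12% lower. No paired analysis was possible because each group had 1 array, and for the same reason no array could be left out.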
